A study of Mus musculus with 2 samples.

Results

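The genes described are 38 enzymes and regulators that remove superoxide, peroxides and oxidised thiols, or that make, recycle and use glutathione. They were taken as a fixed list of gene symbols, and all 38 were found in the deposited tables, among 16310 annotated genes with at least 1 read. RNA of whole heart was sequenced as long reads; the mice were female, of strain B6CASTF1/J and 14 days old. B6CASTF1/J is the F1 hybrid of the C57BL/6J and CAST/EiJ strains, carries no engineered allele in the labels, and received no treatment. The study has a single group of 2 libraries, called replicates 1 and 2, and holds no contrast between conditions. Both libraries carry the same donor record and share a description that mentions 3 females, and the labels do not state whether tissue was pooled. The spread between the libraries may therefore be technical, and every p-value and interval below covers counting error only.

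Replicate 1 held 896941 reads and replicate 2 held 972159, of which 12223 and 12825 were on added spike-in RNA. Levels are CPM, the reads of a gene scaled to the library's remaining 884718 or 959334 reads, so that a single read was worth 1.13 CPM in replicate 1 and 1.04 in replicate 2. A count of 0 allowed up to 3 reads, or 3.39 and 3.13 CPM. A long read was taken to stand for a single transcript, so counts were not divided by length. How evenly transcripts of different length were recovered was not tested, and the length of the leading transcript model is given where it matters. In whole tissue, fewer cells of a type and less RNA per cell cannot be told apart.

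Superoxide dismutases turn superoxide into hydrogen peroxide, which catalase, peroxiredoxins and glutathione peroxidases then reduce. Peroxiredoxins are recharged by thioredoxin and thioredoxin reductase, and glutathione peroxidases by glutathione and glutathione reductase, with NADPH as the source of electrons in both chains. Heart muscle is rich in mitochondria, whose respiratory chain is a known source of superoxide, and it keeps separate cytosolic and mitochondrial sets of these enzymes. NRF2, encoded by Nfe2l2, is the transcription factor that induces many of these genes, and KEAP1 holds it back.

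The 38 genes summed to 6906 CPM in replicate 1 and 7444 CPM in replicate 2, which was 0.691% and 0.744% of the reads. With a minimum of 3 reads in each library, 37 of the 38 were detected. The exception was Hmox1, the inducible heme oxygenase, with 0 reads in replicate 1 and 2 reads in replicate 2. Peroxiredoxins took the most reads of any role in the list, 35.6% ± 0.614 of the reads on the 38 genes (SD, n = 2). They were followed by glutathione peroxidases with 15.3% ± 0.0539 and superoxide dismutases with 11.7% ± 0.365. The NRF2 axis took 1.78% ± 0.207, the smallest share of the 9 roles. The 3 highest genes, Prdx1, Prdx2 and Sod2, together held 33.0% and 33.7% of the listed reads in replicates 1 and 2.

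**Figure D1:**
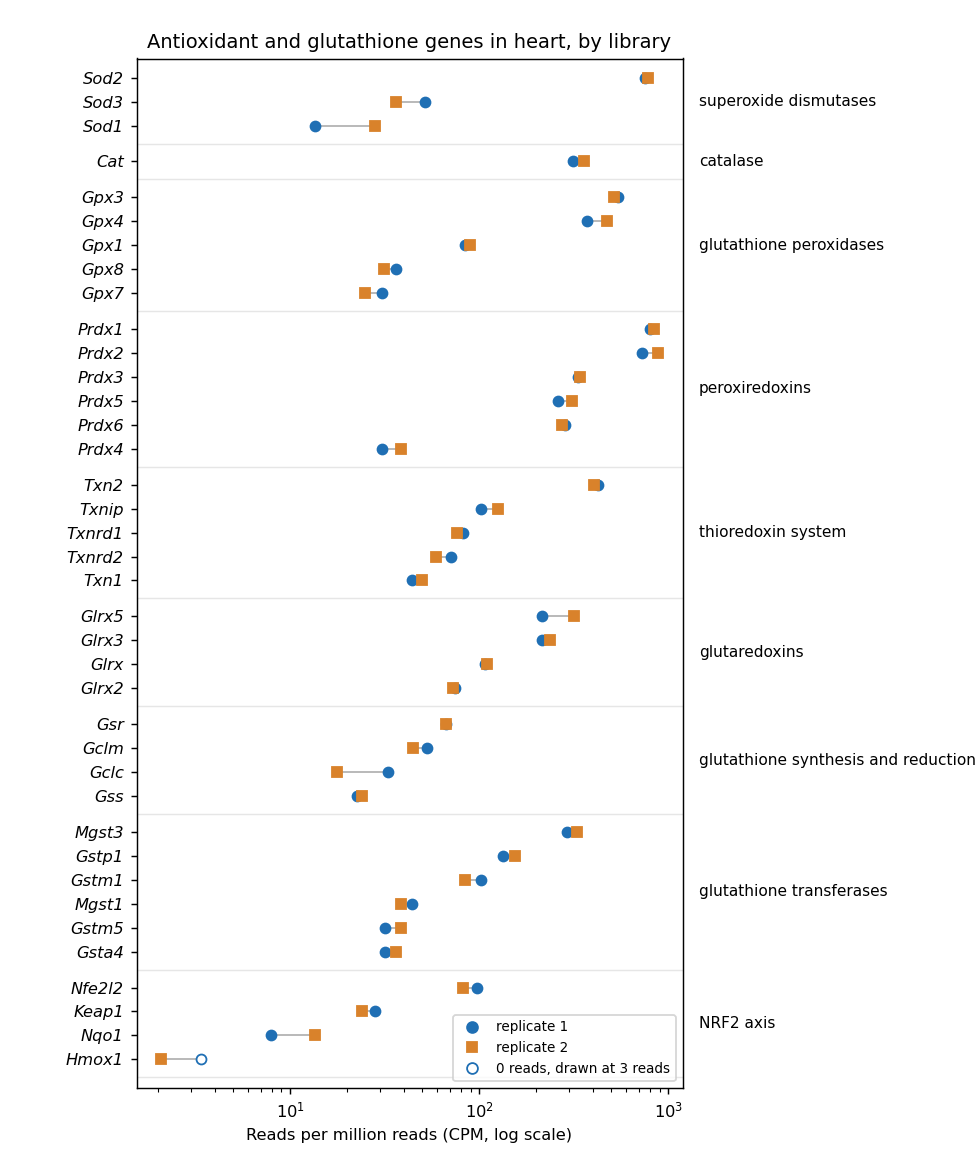
Level of each of the 38 genes in both libraries, grouped by role, in CPM on a log axis; circles are replicate 1, squares are replicate 2, and the open circle stands for 0 reads drawn at the level of 3 reads. Prdx1, Prdx2 and Sod2 lie at the top near 800 CPM, while Sod1 lies at 13.6 and 28.1 CPM and Hmox1 at the floor of detection.

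Among the superoxide dismutases, the mitochondrial enzyme was far above the others. Sod2, the manganese enzyme of the mitochondrial matrix (ENSMUSG00000006818.5; mm10 chromosome 17, 13006846 to 13040063), had 670 reads in replicate 1 and 752 in replicate 2, or 757 and 784 CPM. It took 92.2% ± 0.248 of superoxide dismutase reads (SD, n = 2). Sod3, the secreted extracellular enzyme, had 46 and 35 reads, and Sod1, the copper and zinc enzyme of the cytosol, had 12 and 27. The Sod3 share was 6.32% in replicate 1 (exact 95% interval 4.66 to 8.34) and 4.30% in replicate 2 (3.01 to 5.93), against 1.65% (0.855 to 2.86) and 3.32% (2.20 to 4.79) for Sod1, so their intervals were apart in replicate 1 and overlapped in replicate 2. The leading Sod1 transcript is 641 bases long. Among 111 tested genes led by an annotated transcript of 600 to 700 bases, the median level was 43.3 CPM, and 76 lay above the 20.9 CPM of Sod1. The part of transcript length in the Sod1 level was not tested beyond this comparison. Catalase (Cat), the peroxisomal enzyme that splits hydrogen peroxide, had 278 and 345 reads, or 314 and 360 CPM.

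The peroxiredoxins, which reduce peroxides through a reactive cysteine, were led by a pair of cytosolic enzymes at like levels. Prdx1 (ENSMUSG00000028691.12; chromosome 4, 116685544 to 116700822) had 708 reads in replicate 1 and 808 in replicate 2, or 800.3 and 842 CPM, and was the highest of all 38 genes at rank 139 of the annotated genes. Prdx2 (ENSMUSG00000005161.15; chromosome 8, 84969587 to 84974834) had 640 and 843 reads, or 723 and 879 CPM. The order of the pair switched between the libraries. Prdx3, the mitochondrial enzyme, followed with 295 and 328 reads, 333 and 342 CPM. Prdx5, found in mitochondria, peroxisomes and cytosol, had 231 and 296 reads, 261 and 309 CPM. Prdx6, the enzyme that uses glutathione in place of thioredoxin, had 250 and 264 reads, 283 and 275 CPM. Prdx4, the enzyme of the endoplasmic reticulum, was the lowest of the family at 1.35% ± 0.128 of its reads.

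In the thioredoxin system the mitochondrial carrier also led. Txn2, mitochondrial thioredoxin, had 375 and 388 reads, 424 and 404 CPM, and took 89.8% ± 1.12 of the reads of the thioredoxin pair. Txn1, cytosolic thioredoxin, had 39 and 48 reads. For the reductases that recharge them, the result depended on the models counted. Txnrd1, the cytosolic reductase, had 73 reads in each library and Txnrd2, the mitochondrial one, had 63 and 57. The Txnrd1 share was 53.7% in replicate 1 (exact 95% interval 44.9 to 62.3) and 56.2% in replicate 2 (47.2 to 64.8), and both intervals held 50%. With annotated models alone, and CPM scaled to the reads on those models, Txnrd2 stood at 6.54 CPM against 91.1 for Txnrd1. Most Txnrd2 reads were on an unannotated form described below. Txnip, which binds thioredoxin and blocks it, had 90 and 121 reads. Summed as chains, the mitochondrial genes Sod2, Prdx3, Txn2 and Txnrd2 gave 1586 and 1589.6 CPM, and the cytosolic genes Sod1, Prdx1, Prdx2, Txn1 and Txnrd1 gave 1664 and 1875 CPM. Prdx5, at 261 and 309 CPM and found in both places, was in neither sum. Counted with the mitochondrial genes it would put them first, so the order of the sums rests on the genes chosen.

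Among the glutathione peroxidases, the secreted and the lipid-directed enzymes were the highest. Gpx3, the enzyme secreted into plasma, had 479 and 497 reads, 541 and 518 CPM. Gpx4, which reduces peroxidised lipids within membranes, had 327 and 455 reads, 369.6 and 474 CPM. Gpx1, the general cytosolic and mitochondrial enzyme, had 74 and 86 reads, or 7.88% ± 0.00372 of the family. Gpx7 and Gpx8, enzymes of the endoplasmic reticulum, had 24 to 32 reads in each library. The pseudogene Gpx4-ps2 had 22 and 20 reads, and whether reads were split between it and Gpx4 was not tested.

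Gpx1, Gpx3, Gpx4, Txnrd1 and Txnrd2 are selenoenzymes, in which a TGA codon is read as selenocysteine at the active site. Together they gave 1148 CPM in replicate 1 and 1218 in replicate 2. The codons are printed to show where this residue falls in each leading transcript, or for Txnrd2 in its nearest annotated transcript. The bases are from the GENCODE M21 transcripts, 5′ to 3′ on the coding strand, with the TGA codon in capitals, and for Gpx7 and Gpx8 with the codon that aligned to it in capitals.
Gpx1: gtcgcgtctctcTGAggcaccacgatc
Gpx3: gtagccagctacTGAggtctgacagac
Gpx4: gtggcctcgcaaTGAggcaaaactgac
Gpx7: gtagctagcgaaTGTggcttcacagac
Gpx8: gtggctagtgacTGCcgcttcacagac
Txnrd1: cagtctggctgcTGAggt
Txnrd2: gtgactggttgcTGAggc
In the peroxidases the TGA was codon 47 of 201 in Gpx1, 73 of 226 in Gpx3 and 73 of 197 in Gpx4. In the reductases it was the last codon but 1, at 498 of 499 in Txnrd1 and 526 of 527 in Txnrd2. Gpx7 held TGT and Gpx8 held TGC at the aligned place, both codons for cysteine.

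The 4 genes that make and recycle glutathione summed to 164 ± 15.5 CPM (SD, n = 2). The 5 glutathione peroxidases summed to 1100 ± 54.4 and the 6 glutathione transferases to 659 ± 33.6. Gene by gene these sets overlapped. Gsr at 66.7 CPM and Gclm at 49.0 were above Mgst1 at 41.3 and Gpx7 at 27.8, while Gclc at 25.2 and Gss at 23.3 were below both. Gclc and Gclm, the catalytic and modifier subunits of glutamate-cysteine ligase, the rate-limiting enzyme of synthesis, had 29 and 17 reads and 47 and 43 reads. The Gclm share of the pair was 61.8% in replicate 1 (exact 95% interval 49.98 to 72.8) and 71.7% in replicate 2 (58.6 to 82.5). Gss, glutathione synthetase, had 20 and 23 reads. Gsr, the reductase that restores oxidised glutathione, had 59 and 64 reads, which was 66.7 CPM in each library.

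Glutaredoxins, which use glutathione to reduce mixed disulfides or to handle iron-sulfur clusters, summed to 609 and 738 CPM. Glrx5, the mitochondrial iron-sulfur cluster carrier (ENSMUSG00000021102.4; chromosome 12, 105032688 to 105042906), had 189 reads in replicate 1 and 305 in replicate 2, or 214 and 318 CPM. Glrx3, its cytosolic counterpart in iron handling, had 189 and 228 reads. The enzymes that reduce disulfides, cytosolic Glrx and mitochondrial Glrx2, had 95 and 105 reads and 66 and 70 reads.

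Of the glutathione transferases, which join glutathione to reactive compounds, a microsomal member led. Mgst3, a membrane enzyme with peroxidase activity, had 259 and 316 reads, 293 and 329 CPM, and took 88.2% ± 1.84 of the reads of the microsomal pair. Mgst1 had 39 and 37 reads. The soluble members were led by Gstp1 with 118 and 149 reads and Gstm1 with 90 and 81, ahead of Gstm5 and Gsta4 with 28 to 37 reads in each library. Related genes of the same classes had 22 and 19 reads for Gstp2 and 79 and 75 for Gstm2, and whether reads were split between them and Gstp1 or Gstm1 was not tested.

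**Figure D2:**
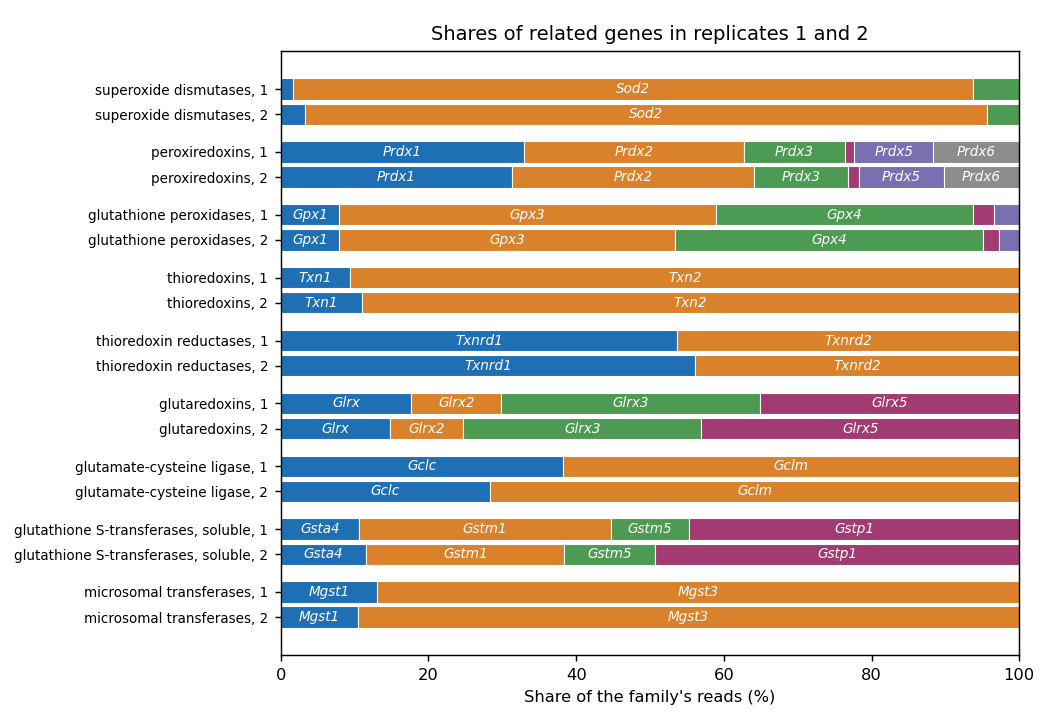
Share of each family's reads, in percent, taken by each gene in replicate 1 and replicate 2; each bar sums to 100%. Sod2, Txn2 and Mgst3 fill 86.9% or more of their bars in both libraries, while the thioredoxin reductases are split near the middle with all models counted, which is not so with annotated models alone (6.54 CPM for Txnrd2 against 91.1 for Txnrd1); unlabelled slices are Sod1 on the left and Sod3 on the right, Prdx4, and Gpx7 then Gpx8.

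Of the NRF2 axis, Nfe2l2 itself had 86 and 79 reads and Keap1 had 25 and 23. The remaining genes of this role, Nqo1, a quinone reductase, and Hmox1, were the lowest of the 38 genes. Nqo1 had 7 and 13 reads, and Hmox1 had 0 and 2. NRF2 binds antioxidant response elements, so the core motif TGACNNNGC was searched on both strands of RefSeq promoter windows of 300 bases, 250 before and 50 after each gene's start (GRCm38.p6). An entry was present for 32 of the 38 genes, and 7 of them, 21.9%, held a match, against 14.0% of 27025 genes. Counted by window, 7 of the 43 windows of these 32 genes held a match, against 12.4% of 32851 windows. The matches are shown with 10 bases on either side, 5′ to 3′ on the gene's strand, with the motif in capitals.
Prdx1: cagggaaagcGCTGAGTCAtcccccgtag
Nfe2l2: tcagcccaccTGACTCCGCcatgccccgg
Txnrd1: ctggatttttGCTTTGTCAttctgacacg
Gclm: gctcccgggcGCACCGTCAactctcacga
Mgst1: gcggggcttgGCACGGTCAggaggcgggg
Gstm5: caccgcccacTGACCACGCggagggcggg
Sod1: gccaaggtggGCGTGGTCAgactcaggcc
The match read forward in Nfe2l2 and Gstm5 and in reverse in the other 5. Counted from the RefSeq start, it began at base −133 in Prdx1, −92 in Txnrd1 and −56 in Sod1. For 6 of the 7 the RefSeq start lay within 55 bases of the annotated start of the leading first exon, and for Mgst1 it lay 211 bases away. Of the genes with a match, Prdx1 stood at 821 CPM and the other 6 between 89.8 CPM for Nfe2l2 and 20.9 for Sod1. A match describes the letters alone.

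In the order of mean levels, neighbouring genes were often not apart beyond the spread of the libraries. Of 37 neighbouring pairs, the ranges of the 2 libraries overlapped in 24 and did not in 13. Prdx1, Prdx2 and Sod2 formed such an overlapping run at the top, with Sod2 clear of Gpx3, and Gpx3 clear of Gpx4. From Prdx3 down to Glrx3, through Cat, Mgst3, Prdx5, Prdx6 and Glrx5, each neighbour overlapped the next. The range of Glrx3 lay above that of Gstp1, and that of Gstp1 above that of Txnip. At the bottom, Sod1 at 13.56 CPM in replicate 1 and Nqo1 at 13.55 CPM in replicate 2 lay less than 1 read apart, so the pair is not apart although the ranges do not overlap.

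Between the libraries, 3 of the 37 genes with at least 10 reads were higher in replicate 2 and 0 were lower, by a two-sided exact binomial test with Benjamini-Hochberg adjustment over 9907 genes at an adjusted p of 0.05. Over all genes tested, 1.69% were called, 0.797% higher and 0.888% lower in replicate 2. That split was 79 genes higher and 88 lower, and 106 higher and 65 lower with spike-in reads as the totals. Without adjustment, 4 of the 37 had a p under 0.05, or 10.8%, against 9.13% of all genes. Glrx5 differed most of the called genes, with a log2 ratio of replicate 2 over replicate 1 of 0.57 (95% interval 0.31 to 0.84, adjusted p = 0.00208, exact binomial test). The log2 ratio of Gpx4 was 0.36 (0.15 to 0.57, adjusted p = 0.0385) and that of Prdx2 was 0.28 (0.13 to 0.43, adjusted p = 0.0178), by the same exact test. Sod1 had the largest log2 ratio, 1.02 (0.02 to 2.17), on 39 reads in all, and did not pass (p = 0.0366, adjusted p = 0.484, exact binomial test). Gclc lay furthest the other way at −0.87 (−1.84 to 0.02; adjusted p = 0.556, exact binomial test). The median log2 ratio was 0.05 over the 37 genes and 0.00 over all genes tested, and 56.8% of the 37 were above 0 against 50.03% of all.

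**Figure D3:**
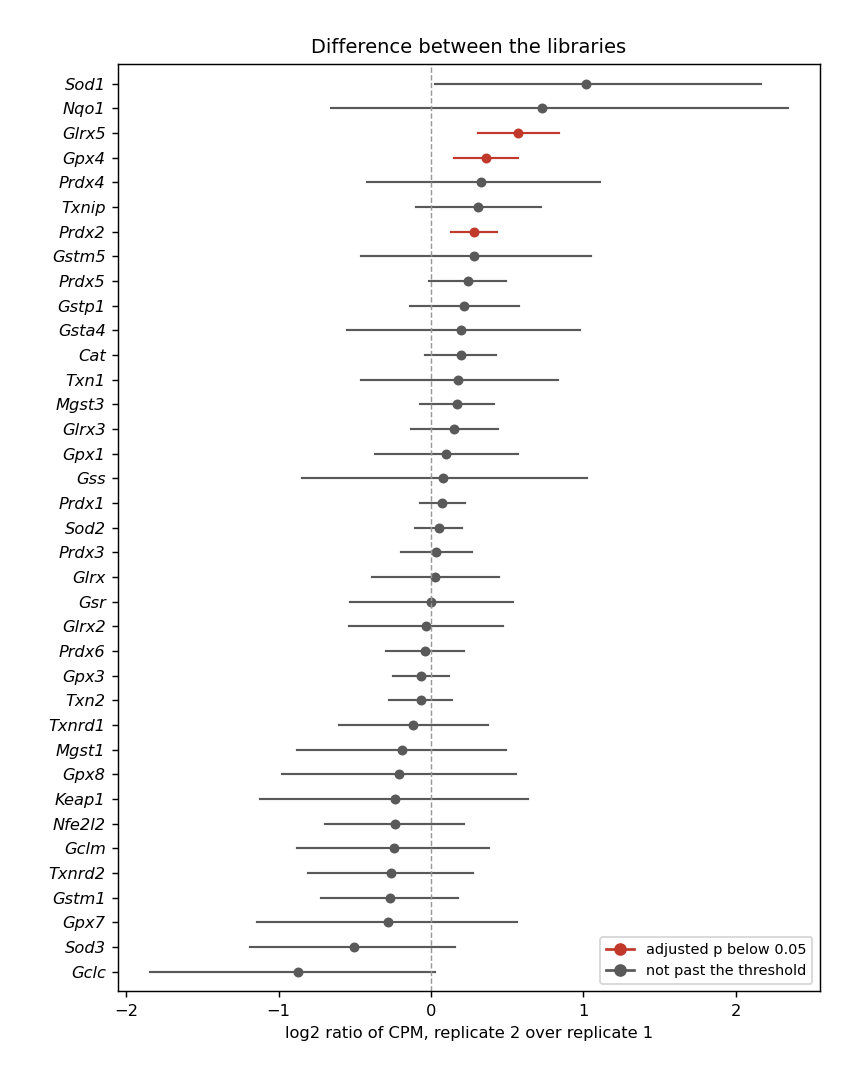
Log2 ratio of CPM, replicate 2 over replicate 1, for the 37 genes with at least 10 reads; points are ratios with 0.5 added to each count and bars are exact 95% intervals. The red genes Glrx5, Gpx4 and Prdx2 passed the threshold and lie at 0.57, 0.36 and 0.28, while the widest bars belong to Nqo1 and Sod1, which had few reads.

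All 3 calls depended on which reads were counted. With annotated transcript models alone, Glrx5 stood at a log2 ratio of 0.40, Gpx4 at 0.34 and Prdx2 at 0.26, and 0 of the 37 passed (adjusted p = 0.221, 0.0737 and 0.0826, exact binomial test), with 49 of all genes called higher against 79. In Glrx5 the reads on incomplete models, which hold part of an annotated transcript, were 30 in replicate 1 and 77 in replicate 2. All of them lay on a single-exon model of 465 bases within the last exon (chromosome 12, 105040275 to 105040739). Prdx2 had a like model of 312 bases within its last exon (chromosome 8, 84974000 to 84974311) with 73 and 105 reads. Leaving incomplete models out gave log2 ratios of 0.40 for Glrx5 and 0.25 for Prdx2, and neither passed (adjusted p = 0.187 and 0.0749, exact binomial test).

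Over all genes, the difference also moved with transcript length. Genes led by a transcript under 1000 bases had a median log2 ratio of 0.20 over all genes and 0.28 over the 7 listed, of which 6 were above 0. At 1000 to 1500 bases the medians were 0.08 over all genes and 0.03 over the 11 listed, and at 1500 to 3000 bases −0.02 and 0.08 over the 13 listed, so the listed genes did not follow length in the middle. At 3000 bases or more the medians were −0.06 and −0.24, and 1 of 6 listed genes was above 0. Gpx4, with a leading transcript of 959 bases, stood at a log2 ratio of 0.21 when set against genes of like length and no longer passed (adjusted p = 0.569, exact binomial test). Glrx5 and Prdx2, with leading transcripts of 2925 and 1500 bases, stood at 0.60 and 0.31 and passed (adjusted p = 0.00125 and 0.00651, exact binomial test). At 1500 bases Prdx2 lay on the lower edge of the class of 1500 to 3000 bases. Its ratio against the class of 1000 to 1500 bases, whose median was higher, was not computed, so its pass may depend on that edge.

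Among usable reads, most of the genes were led by a single transcript form. A usable read is one on an annotated model, or on an unannotated spliced model that reached 5 reads in both libraries, and 32 of the 38 genes had at least 20 usable reads in both. The leading form held at least 90% of usable reads in 27 of the 32, or 84.4%, against 69.0% of 4348 genes. With unannotated forms counted from 1 read, this share moved by more than the SD of the libraries in 19 of the 32. That SD was 0 for genes at 100% in both libraries. With incomplete models counted, the share moved in 3. The share of the leading form did not pass between the libraries in any of 19 genes tested by Fisher's exact test, with 2 of 2747 genes called in all, or 0.0728%. Without adjustment, 2 of the 19, Prdx5 (p = 0.0268) and Txnip (p = 0.0445), and 96 of all genes had an exact p under 0.05. Txnip, Prdx2, Txnrd1, Txnrd2 and Gpx8 were the 5 genes under 90%.

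**Figure D4:**
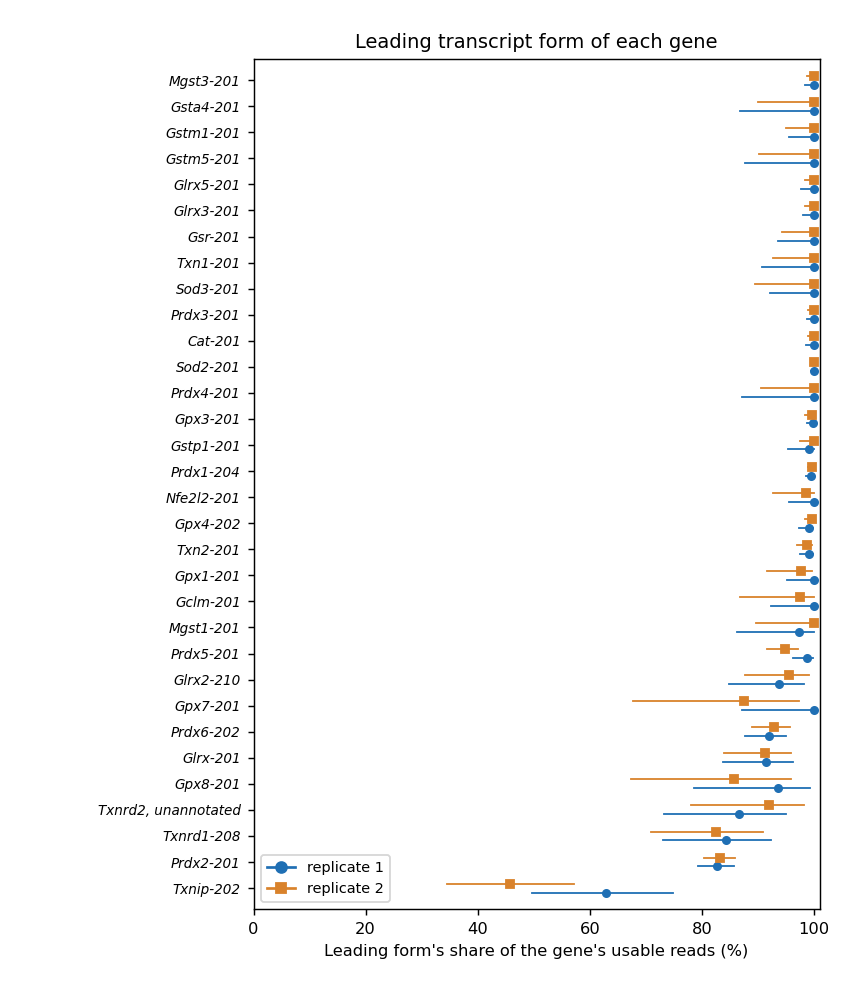
Share of usable reads, in percent, held by the leading transcript form of each of the 32 genes with at least 20 usable reads in both libraries; bars are exact 95% binomial intervals. Most points lie at or near 100%, and Txnip-202 is lowest at 62.9% in replicate 1 and 45.7% in replicate 2.

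Txnip was divided between a pair of annotated forms that differ by 3 bases at the start of the second exon. Of the reads crossing the first intron, 39 of 56 in replicate 1 and 37 of 71 in replicate 2 used the earlier acceptor of Txnip-202 (chromosome 3, exon start 96558889). That was 69.6% (exact 95% interval 55.9 to 81.2) and 52.1% (39.9 to 64.1). The remaining 17 and 34 reads used the acceptor of Txnip-201 (exon start 96558892). The coding sequences were 1191 and 1188 bases. The spliced sequence of Txnip-202 around the site is shown to mark the bases, in capitals, that Txnip-201 lacks.
Txnip-202: agcagcctacagCAGgtgagaacgaga
The intervals of the libraries overlapped, and the form share had an adjusted p of 1 by Fisher's exact test.

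Txnrd2 was the only one of the 32 genes led by an unannotated form, as were 4.35% of the 4348 genes. Of the usable reads, 39 of 45 and 34 of 37 were on that form, or 89.3% ± 3.69 (SD, n = 2), and shared 15 of its 16 introns with Txnrd2-203. The other intron (chromosome 16, 18443287 to 18454475) skipped a 20-base exon of Txnrd2-203, with a donor 12 bases after and an acceptor 13 bases before those of Txnrd2-203. This acceptor starts an exon in 2 annotated transcripts, Txnrd2-212 and Txnrd2-213, and the donor ends an exon in 0. Among all reads that left the exon before it, 44 of 47 and 37 of 40 used the new junction, 93.6% (exact 95% interval 82.5 to 98.7) and 92.5% (79.6 to 98.4). The 20-base exon itself (18453721 to 18453740) was present in 0 of 47 and 1 of 40 reads, and a 7-base exon shared by Txnrd2-212 and Txnrd2-213 (18451971 to 18451977) in 0 and 0. Against Txnrd2-203 the new junction added 25 bases and left out 20, a net change of 5. Taken as mapped, this is not a whole number of codons, so the reading frame of Txnrd2-203 would not be kept. Whether the form encodes the selenocysteine end of Txnrd2-203 was not tested. The short annotated exons are printed in capitals, with neighbouring exon bases in lower case, because the new junction passes over both of them.
Txnrd2-203: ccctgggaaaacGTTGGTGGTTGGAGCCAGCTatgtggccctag
Txnrd2-212: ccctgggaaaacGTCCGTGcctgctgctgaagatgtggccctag
The deposited models hold positions and not read bases, so whether the reads carried the letters of the 20-base exon was not tested.

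A further unannotated form was seen in Glrx, with 8 of 93 and 9 of 102 usable reads, or 8.71% ± 0.157. It differed from Glrx-201 by an acceptor 4 bases later in the last intron, which ended at 75849247 in place of 75849243 on chromosome 13, in the 3′ untranslated region.

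First exons, set by the first splice donor, were as uniform among the reads counted, which left out incomplete models. With incomplete models counted, the leading share moved by more than the SD of the libraries in 16 of 32 genes. The leading first exon held at least 90% of reads in 31 of 32 genes, or 96.9%, against 82.4% of 4552 genes, and 0 of the 32 had a second first exon at 10% or more of reads in both libraries. None of 17 genes passed between the libraries by Fisher's exact test, with 0.19% of 3156 genes called, and 1 of the 17 had an unadjusted p under 0.05. That gene was Prdx5, where Prdx5-203 starts downstream of Prdx5-201 (chromosome 19, first exon 6907982 to 6908301) and took 3 of 228 and 15 of 294 reads (p = 0.0269, adjusted p = 1, Fisher's exact test).

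Prdx2 was the gene of the 32 with its leading first exon under 90%. The first exon shared by Prdx2-201 and Prdx2-203 (84969611 to 84969762) had 507 of 562 and 654 of 730 reads, 89.9% ± 0.442 (SD, n = 2). Prdx2-208, whose first exon starts 1 base before the second exon of Prdx2-201 and holds the start codon, had 35 and 56 reads, or 6.95% ± 1.02. Prdx2-202 had 15 and 17. A read of Prdx2-201 that lacked its first exon would begin close to the start of Prdx2-208. Whether such reads were counted on Prdx2-208 was not tested. Prdx2-203 differs from Prdx2-201 by a second exon 88 bases longer and had 7.48% ± 1.17 of usable reads. All 4 forms hold a coding sequence of 594 bases.

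In Gpx4, the first exon of Gpx4-202, which serves the known mitochondrial and cytosolic proteins, had 321 of 324 and 447 of 451 reads. The first exon of Gpx4-201, with a coding sequence of 759 bases against 591, had 1 read in each library. Txnrd1-208 and Txnrd1-201 shared a first exon with 67 of 70 and 61 of 67 reads, and Txnrd1-206 started elsewhere with 3 and 5 reads, all 3 with 1497 coding bases. Glrx2-210, with a coding sequence of 468 bases, had 60 of 64 and 65 of 68 reads, and Glrx2-202, with 369, had 4 and 3. Keap1 fell under the minimum with 22 and 16 usable reads, which were spread over 4 first exons with 11 and 10 on Keap1-201 and 5 and 4 on Keap1-202. All 4 Keap1 forms hold 1872 coding bases.

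Annotated models held 92.8% of the reads on the 38 genes in replicate 1 and 92.2% in replicate 2, against 75.6% and 76.0% of all reads. Incomplete models held 4.35% and 5.28%. Txnip had the highest incomplete share in replicate 1, 31.1%, and Txnrd2 in replicate 2, 26.3%. None of the 38 genes had 20% or more of its reads in the genomic class, which TALON gives to reads that match no splicing pattern. Models on the opposite strand overlapped several of the genes. At Sod2 an unannotated single-exon antisense model with its 3′ end at 13016480 had 46 reads in replicate 1 and 50 in replicate 2. It was 485 bases long in replicate 1, with its start at 13016964, and 3655 in replicate 2, with its start at 13020134. Known neighbours on the opposite strand included Rnaseh2a beside Prdx2, with 19 and 28 reads, and Trmt112 beside Prdx5, with 14 and 16. Reads on other genes of the same strand overlapping the 38 numbered 0.

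A list of 97 further genes of the same pathways held 72 detected genes, and 9 had 0 reads in both libraries. Of 71 tested, 0 were higher and 2 were lower in replicate 2, against 0.797% and 0.888% of all genes tested. Both lay among NRF2 partners and other targets. Sesn1, a sestrin of the stress response, had 209 and 151 reads (log2 ratio −0.58, adjusted p = 0.0136, exact binomial test), and Mt1, a metallothionein, had 82 and 45 (log2 ratio −0.98, adjusted p = 0.0206, exact binomial test). That list of 21 genes summed to 4134 ± 60.2 CPM and was led by the ferritin chains Fth1 at 2476 ± 83.8 and Ftl1 at 313 ± 35.5.

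Genes that supply NADPH summed to 3560 ± 108 CPM, with Idh2, the mitochondrial NADP-dependent isocitrate dehydrogenase, at 2469 ± 99.5 and Taldo1, transaldolase, at 245 ± 6.66. Idh2 was the only gene of that list above Prdx1, the highest of the 38, at 821 ± 29.7, and Fth1 was above it too. Selenoproteins and selenium handling summed to 1125 ± 28.3 CPM, led by Selenop, the plasma selenium carrier, at 359 ± 6.75 and Sephs2, which makes the selenium donor, at 190.5 ± 5.53. Glutathione turnover and cystine uptake gave 740.1 ± 53.1, led by Glo1 and Hagh, the glyoxalases, at 449 ± 14.2 and 122 ± 17.7. Other peroxidases and repair enzymes gave 684 ± 10.7, led by Park7 at 252 ± 31.6 and the methionine sulfoxide reductase Msrb2 at 111 ± 2.53. Other glutathione transferases gave 381 ± 17.2, led by Gstz1 at 92.9 ± 4.55 and Gstm2 at 83.7 ± 7.86. Oxidant sources were the lowest list at 119.6 ± 11.4, with Cyba, a subunit of NADPH oxidase, at 49.7 ± 6.36 and Xdh, xanthine dehydrogenase, at 27.1 ± 17.7.

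The tissue label was checked against marker genes. Cardiomyocyte markers summed to 46015 and 47603 CPM with 8 of 8 detected, while liver markers were at 0 and 1.04 CPM and skeletal muscle markers at 1.13 and 1.04. Blood was present in both libraries. Erythroid markers, red cells being known to hold PRDX2 and catalase, summed to 16120.4 CPM in replicate 1 and 13858 in replicate 2. Of 5 tested, 4 were lower in replicate 2, and 4 of 8 cardiomyocyte markers (Myl3, Actc1, Pln and Myl2) were higher. Of the other cardiomyocyte markers, Tnni3 had a log2 ratio of 0.19, Myh6 of −0.03, Tnnt2 of −0.07 and Ryr2 of −0.50, and none of these 4 passed (exact binomial test, unadjusted p = 0.114, 0.0202, 0.668 and 0.0442). Fibroblast markers summed to 6258 and 6042 CPM, smooth muscle and pericyte markers to 1034 and 877, endothelial markers to 476 and 486 and macrophage markers to 301 and 226, with 0 genes called by the exact binomial test and 3 (Dcn, C1qb and Rgs5) at an unadjusted p under 0.05. Lung markers summed to 133 and 9.38 CPM, nearly all on Scgb1a1, which was lower in replicate 2 with 111 and 7 reads, while Sftpb and Ager had 0 reads in both. Among adipocyte markers, 4 of 4 were detected and Ucp1, the marker of brown fat, was higher in replicate 2 with 53 and 107 reads, while Cidec, Adipoq and Plin1 had log2 ratios of −0.29, −0.41 and −0.12 and did not pass. The part of these cells in the levels of the 38 genes, or in their differences between the libraries, was not tested.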

How the data were processed

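Reads were counted per transcript model in each library, and the deposited tables hold these counts, unnormalised. Per the file headers and the accompanying deposited notes, the authors used mm10 alignments after filtering, GENCODE M21 and TALON, and treated each library separately. The aligner and its version were not given in the sources used here. Reads were summed per gene over all classes and scaled to CPM without spike-in reads. Models were matched between the libraries by intron chain. Levels are means ± SD of 2 libraries, and intervals are exact (Clopper-Pearson for shares) at 95%. Libraries were compared per gene with an exact binomial test (at least 10 reads) and per form or first exon with Fisher's exact test (at least 20 usable reads in each library), each adjusted over all genes by Benjamini-Hochberg at 0.05, with Python 3.11.15 and scipy 1.17.1. edgeR 4.0.16 gave TMM factors alone. Procedures were tested on simulated data. Described further were the 12 highest genes, genes past a threshold, and genes with several first exons, an unannotated leading form or many genomic reads. Gpx8, Txnip, Sod1, Keap1 and other forms were described after their values were seen. The 38 genes, the lists and the rules were chosen with earlier results of these data known. Sequences are from GENCODE M21 transcripts and RefSeq promoters (GRCm38.p6). Proteins were not used here.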

Additional observations from a re-analysis of the deposited data

How the results depend on the processing

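The differences of Glrx5, Gpx4 and Prdx2 kept their sign under every alternative tried, and the other genes named as differing were not run again. With annotated models alone the level of Txnrd2 was 6.54 CPM in place of 65.3. In that setting CPM was scaled to the reads on annotated models, 75.6% and 76.0% of all reads in replicates 1 and 2. Those models held 92.8% and 92.2% of the reads on the 38 genes. On this smaller total the sum of the 38 genes was higher in CPM, although fewer of their reads were counted. With annotated models alone, genes called higher in replicate 2 numbered 49 in place of 79, the called genes of the list 0 in place of 3, the sum of the 38 genes 8756 CPM in place of 7175, the leading-form calls over all genes 1 in place of 2 and the first-exon calls 2 in place of 6. With incomplete models left out, 1 of the 38 genes was called, Gpx4. Against totals of genes of like length, 45 genes were called higher. These last 2 alternatives were chosen after seeing the data. With spike-in reads as totals the split was 106 higher and 65 lower in place of 79 and 88. A minimum of 10 usable reads gave 1 leading-form call, unannotated forms from 1 read gave 6, and starts joined within 100 bases gave 26 first-exon calls. Apart from that change of scale, the causes of these shifts were not tested. Over all alternatives the adjusted p ran from 0.000435 to 0.221 for Glrx5, 0.00184 to 0.0826 for Prdx2 and 0.00869 to 0.569 for Gpx4 (exact binomial test), and with no minimum of reads Gpx4 had 0.0635. Leaving out a replicate gave sums of 6906 to 7444 CPM. No paired analysis was possible because there was 1 group. At this depth genes with few reads, such as Sod1, Nqo1 and Hmox1, could not show differences of small size.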
